A study of Mus musculus with 9 samples.

Results

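The Ly6 genes of the mouse encode small, cysteine-rich proteins that are tied to the outer face of the cell membrane by a lipid (GPI) anchor. The members were taken by name: Ly6a, Ly6a2, Ly6c1, Ly6c2, Ly6d, Ly6e, Ly6g, Ly6i and Ly6k, 9 genes in all. Of these, 8 had a probe set with a single gene symbol, among 22180 genes measured that way, and Ly6a was not measured here. The family supplies several of the antigens by which mouse blood cells are sorted. Ly6C is abundant on classical monocytes, the cells that leave the blood for injured tissue, and Ly6G marks neutrophils. Several family members are induced by interferons.

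Expression was profiled with Affymetrix arrays in cells of the plantar hindpaw of male C57BL/6J mice, 8 weeks of age. The skin had been incised 24 h earlier, and every gate came from wounded tissue. Cells with surface CD11b (a myeloid integrin subunit) and without Ly6G were divided by surface Ly6C into high, medium and low gates, with 3 arrays each and 9 in all. The study asks how these populations differ. The gates were therefore defined by the product of Ly6c2 and Ly6c1 and by the absence of that of Ly6g, so differences in these transcripts are tied to the sort and are no independent result. The labels do not say whether the arrays of a gate come from separate animals, so p-values measure only how these arrays scatter, and that scatter may be technical.

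All values are log2 intensities, and the level of a member is compared only with its own level in other gates. Differences between gates are also set side by side between genes. The median probe set of an array lay between 3.93 and 4.10. The 10 monocyte and macrophage markers, Itgam, Csf1r and Adgre1 among them, were above that median on every array. Array means over the list were 9.95 to 10.11 (high gate), 9.98 to 10.07 (medium) and 10.01 to 10.18 (low). Single markers differed: against high, 2 were higher in low, Cx3cr1 (1.02, limma adjusted p = 0.0259) and Mertk (0.87, 0.0383). Another 2 were lower, Ccr2 (-0.79, 0.00178) and Fcgr1 (-0.71, 0.0186). Over all genes 3.35% were higher and 2.32% lower. Without 1 array 1 to 4 of the 10 passed. Fibroblast markers (12 genes) were also above the median in part, and their array means were 7.69 to 8.79 for the high gate, 6.04 to 6.20 for the medium gate and 5.61 to 5.77 for the low gate. Against high, 10 of the 12 were lower in low and 8 were lower in medium (limma adjusted p under 0.05). Over all genes 2.32% and 0.198% were lower. The largest falls to low among the 12 were those of Col1a2 (-4.53), Dpt (-4.03), Lum (-3.92) and Col3a1 (-3.43). The count of 8 became 1 without high replicate 2 or any 1 medium array, 5 without high replicate 1 or low replicate 1, 3 without low replicate 2, and 0 with only the arrays of those gates. In such bulk samples fewer cells of a type and less RNA per cell cannot be told apart.

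The members lie on chromosome 15, and Ly6c2 and Ly6a2 are next to each other in the RefSeq table of GRCm38.p6. Upstream sequence from RefSeq (GRCm38.p6) was held for 4 members, Ly6a2, Ly6c1, Ly6c2 and Ly6g. The 250 bases before the start of Ly6c2 (chr15:75111972-75112221, minus strand) and of Ly6a2 (chr15:75135129-75135378, minus strand) are shown, because these are the members with the largest differences between gates. They are written 5′ to 3′, and capitals mark bases that, within their alignment, differ or have no partner. The first 5 bases of the Ly6a2 stretch lie outside the alignment, beyond the 5′ end of the Ly6c2 window, and are not marked.
Ly6c2: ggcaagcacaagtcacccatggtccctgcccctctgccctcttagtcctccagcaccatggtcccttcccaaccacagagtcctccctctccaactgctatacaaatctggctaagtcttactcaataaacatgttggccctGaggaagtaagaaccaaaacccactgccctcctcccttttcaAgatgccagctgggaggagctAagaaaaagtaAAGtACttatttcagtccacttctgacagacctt
Ly6a2: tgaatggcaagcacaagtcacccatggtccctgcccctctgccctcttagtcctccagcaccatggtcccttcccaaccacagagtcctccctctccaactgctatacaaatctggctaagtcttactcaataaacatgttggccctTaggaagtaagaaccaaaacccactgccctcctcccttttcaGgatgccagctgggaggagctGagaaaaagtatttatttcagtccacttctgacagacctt
Over the window of 300 bases, which runs from 250 before to 50 after the start, 291 of 300 aligned positions were identical (97.0%). The other pairs among the 4 members matched at 71.1% to 76.9% of aligned positions. The Ly6c2 and Ly6a2 windows differed by 4 substitutions, G143T, A185G, A206G and A278C, with the Ly6c2 base first and positions counted from 1 at the 5′ end of the Ly6c2 window, and by 5 bases that Ly6a2 lacks. The substitutions G143T and A278C lie in the letters GAGGAA, a form bound by the ETS factor PU.1. Both change letters before GGAA, the core that ETS factors share, and leave GGAA itself in place in Ly6a2. On both strands GAGGAA occurred 2 times in the Ly6c2 window, 2 times in that of Ly6g, 1 time in that of Ly6c1 and 0 times in that of Ly6a2, against 28.3% of 32851 RefSeq windows with at least 1 match. This motif was picked after the differing bases were seen. Among interferon elements, GAAA followed after any 2 bases by GAAA, and TTCNNNGAA, searched on both strands, occurred in 0 of the 4 members' windows and in 3.44% and 8.3% of all windows. A match of letters describes the window and does not show a binding site.

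Between the Ly6C low and Ly6C high gates, 3 of the 8 measured members were lower in low, Ly6a2, Ly6c2 and Ly6e, and 0 were higher (limma adjusted p under 0.05, with 4 lower and 0 higher at an unadjusted p under 0.05). Over all genes 2.32% were lower in low by the same rule, 3.35% were higher and 5.67% differed in either direction. Leaving out Ly6c1 and Ly6c2, whose product set the gates, 2 of 6 members were lower, Ly6a2 and Ly6e. The 6 still hold Ly6g, which the sort also used, and the call of Ly6e was lost when any of 8 of the 9 arrays was dropped. The median log2 difference of the 8 members was -0.76, against 0.01 over all genes. Because the members were chosen with earlier results of these data known, these counts and medians only describe the list. They are no independent result. Further genes named Ly6, such as Ly6f, Ly6g2 and Ly6h, are not in this list and are read below with other genes of the same protein fold. The arrays of Ly6a2, Ly6c2 and Ly6e did not overlap between these gates, whereas 8.76% of all genes were lower and 11.4% higher in low without overlap. Over the 3 gates jointly, Ly6a2 and Ly6c2 passed limma's F test (adjusted p = 0.000215 and 0.00241), as did 4% of all genes.

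**Figure D1:**
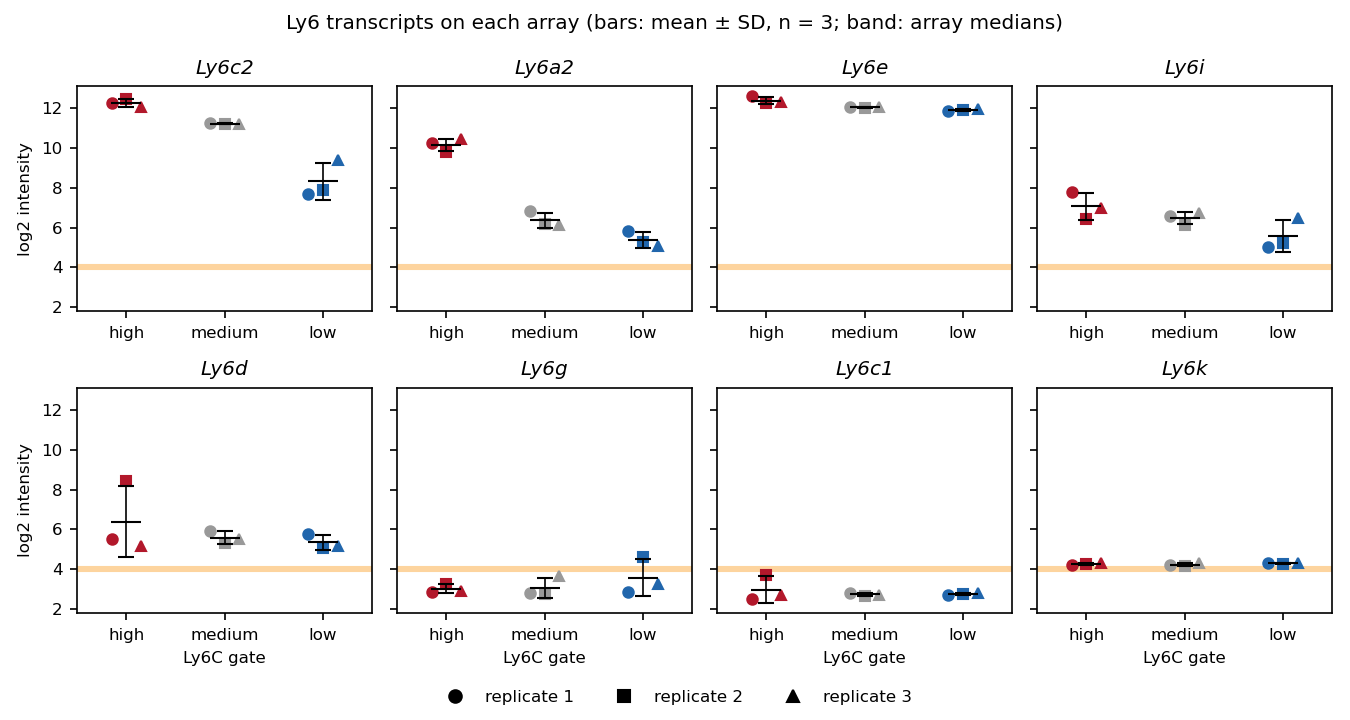
Log2 intensity of the 8 measured Ly6 transcripts on each of the 9 arrays, by Ly6C gate; symbols give the replicate number, bars the mean ± SD (n = 3) and the band the array medians. Ly6a2 falls from 10.16 in high to 6.36 in medium, Ly6c2 falls mainly between medium (11.22) and low (8.33), and Ly6c1 lies below the band on every array.

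Ly6c2, one of the genes for the sorted Ly6C protein, was read first because it checks the gates. It stood at 12.26, 12.48 and 12.08 on the Ly6C high arrays, at 11.27, 11.20 and 11.20 on the medium arrays and at 7.69, 7.90 and 9.40 on the low arrays. The gates did not overlap and followed the order of the sort. The fall from high to low was a log2 difference of -3.94 (95% interval -4.79 to -3.09, limma adjusted p = 0.00102), with 4 of 22180 genes falling further. From medium to low it was -2.89 (-3.74 to -2.04, limma adjusted p = 0.00895), and 0 genes fell further. From high to medium it was -1.05 (-1.90 to -0.20) and missed the threshold (limma adjusted p = 0.527), but it passed without low replicate 3 (limma adjusted p = 0.0407). That array, at 9.40, was the low array nearest to the other gates.

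Ly6a2, a neighbouring member of the same cluster, fell further than any other gene measured in Ly6C low against high. Ly6a was not measured, and whether RNA of Ly6a or of Ly6c2, which is tied to the sort, also binds the Ly6a2 probe set was not tested. The values of Ly6a2 were 10.23, 9.82 and 10.43 in high, 6.81, 6.16 and 6.11 in medium, and 5.85, 5.26 and 5.07 in low. The high arrays stood far above both other gates, and medium and low were close but did not overlap. The means were 10.16 ± 0.32 (SD, n = 3), 6.36 ± 0.39 and 5.40 ± 0.40. The low arrays were 27.2-fold below the high arrays for Ly6a2 (log2 difference -4.77, SE 0.26; limma adjusted p = 9.98e-05). It was 14-fold lower in medium than in high (-3.80, 95% interval -4.39 to -3.22, limma adjusted p = 0.00145), again with 0 genes falling further. From medium to low the difference was -0.96 (-1.55 to -0.38) and missed the threshold (limma adjusted p = 0.113).

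In Ly6C medium against Ly6C high, Ly6a2 was the 1 member called of 8 (3 lower at an unadjusted p under 0.05), where 0.239% of all genes were called, 0.198% lower and 0.0406% higher. With only the 6 arrays of those gates in the fit, 1 gene passed over the whole array, and Ly6a2 was that gene (limma adjusted p = 0.0439). Arrays did not overlap for 3 members, Ly6a2, Ly6c2 and Ly6e, all lower in medium, against 4.93% of all genes lower and 5.77% higher. In Ly6C low against Ly6C medium, Ly6c2 was the 1 member called, where 1.93% of all genes were called, 0.541% lower and 1.38% higher. Ly6a2, Ly6c2 and Ly6e were lower in low without overlap, against 7.58% of all genes lower and 9.25% higher. Median differences of the 8 members were -0.46 and -0.20 in these comparisons, against 0.03 and -0.02 over all genes. These comparisons share arrays with each other, so their values are given side by side only.

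**Figure D2:**
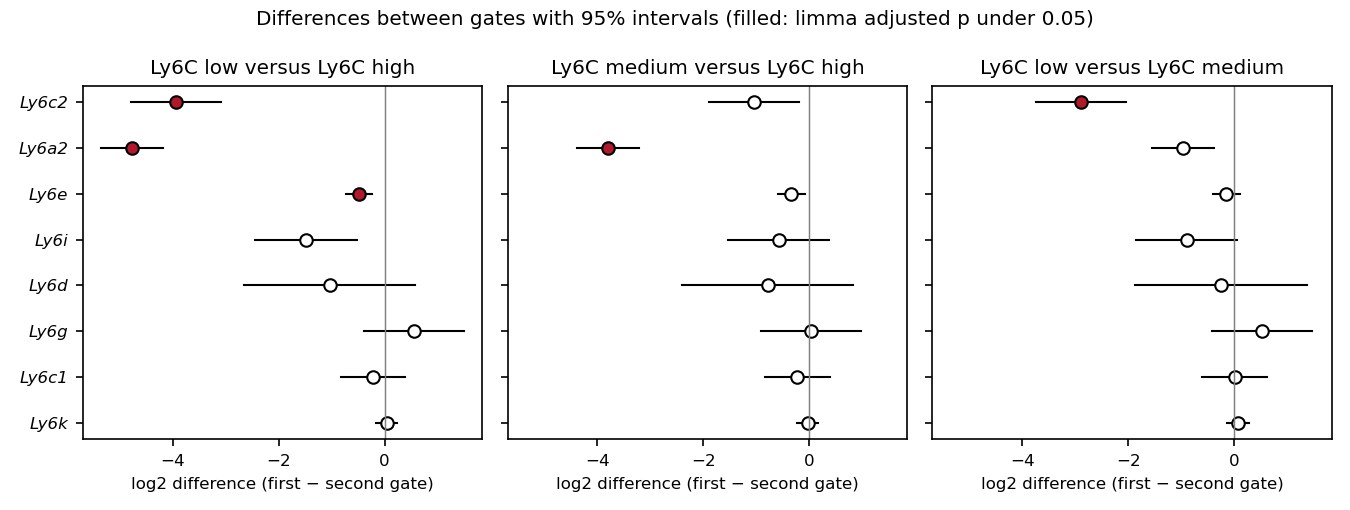
Log2 differences of the 8 measured members for the 3 comparisons, with the 95% interval of the limma fit; filled points have an adjusted p under 0.05. Ly6a2 and Ly6c2 stand apart to the left in low versus high (-4.77 and -3.94), Ly6a2 in medium versus high (-3.80) and Ly6c2 in low versus medium (-2.89).

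The calls of Ly6a2 and Ly6c2 lay at different borders of the sort, Ly6a2 between high and medium and Ly6c2 between medium and low. Of the distance from high to low, medium had covered a share of 0.80 for Ly6a2 (0.76 to 0.84 when each array was left out in turn) and of 0.27 for Ly6c2 (0.23 to 0.29). The log2 difference of Ly6a2 minus that of Ly6c2 was -2.75 from high to medium and 1.93 from medium to low. In both steps the per-array values of Ly6a2 minus Ly6c2 did not overlap between gates. The exact two-sided permutation test over 3 against 3 arrays gave p = 0.1 for each of the 2 steps, the smallest p this design allows. After Benjamini-Hochberg adjustment this permutation test gave 0.1 as well. The pair was picked after its differences were seen, and the steps of Ly6c2 are tied to the sort. The lack of overlap and the p-values therefore only describe these arrays and are no independent result. The low arrays also ordered these genes differently: replicate 3 was highest for Ly6c2 (9.40) and lowest for Ly6a2 (5.07).

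**Figure D3:**
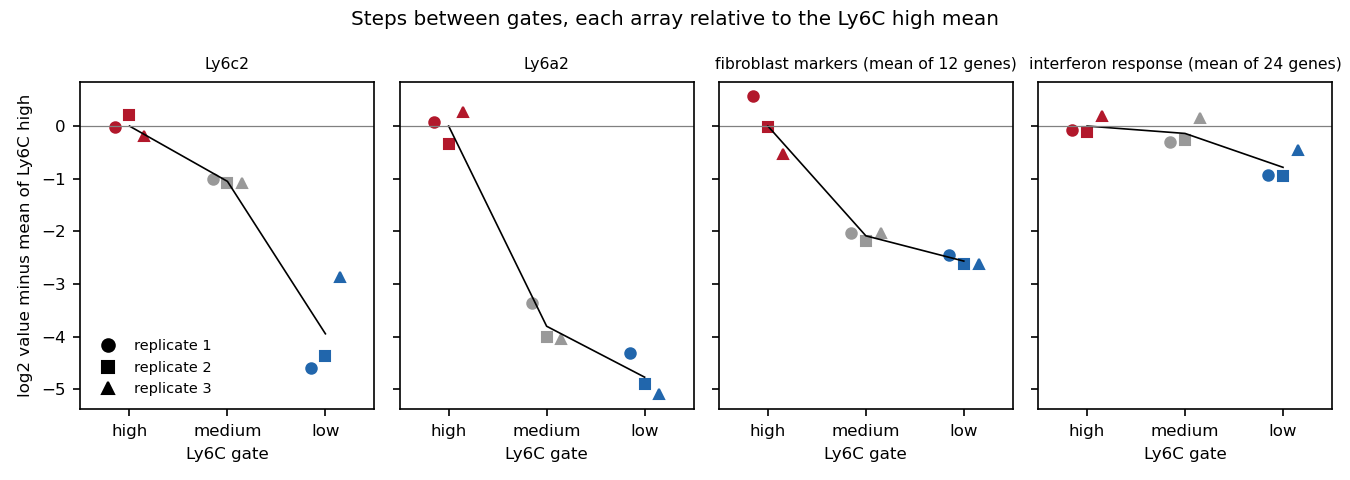
Each array's log2 value minus the mean of the Ly6C high arrays, for Ly6c2, Ly6a2, the mean of 12 fibroblast markers and the mean of 24 interferon response genes; lines join gate means. Ly6a2 and the fibroblast mean drop mostly between high and medium, and Ly6c2 and the interferon mean mostly between medium and low.

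The genes most like Ly6a2 over the 9 arrays, among 5732 genes with a mean of at least 6, were Dcn (Pearson r = 0.976), Dpt (0.969), Nfil3 (0.969), Fosl2 (0.963) and Pnrc1 (0.962). Dcn and Dpt encode the matrix proteins decorin and dermatopontin of fibroblasts, and Nfil3, Fosl2 and Pnrc1 encode nuclear regulators. Arrays of a gate share its cells, so these coefficients mostly repeat the gate means. With gate means removed, r was -0.05 for Dcn, 0.42 for Dpt, 0.33 for Nfil3, 0.48 for Fosl2 and 0.11 for Pnrc1. Ly6a2 followed the mean of the fibroblast markers at r = 0.96 over 9 arrays and at 0.00 within gates. Within the high gate Ly6a2 was 10.23, 9.82 and 10.43 on replicates 1, 2 and 3, where the fibroblast mean was 8.79, 8.20 and 7.69. The part of fibroblast RNA in the difference between gates was not tested. Endothelial markers had array means of 4.73 to 5.18 (high gate), 4.46 to 4.58 (medium) and 4.28 to 4.65 (low). Of these 10 genes, 9 had a difference below 0 between low and high. With limma 1 was called lower, Kdr (-0.86, adjusted p = 0.0308), against 2.32% of all genes, and 0 to 1 without 1 array. In medium versus high 0 of the 10 passed, against 0.239% of all genes. Tek and Tie1 were never above the array median. T cell and NK cell markers stayed at 3.66 to 3.76, 3.81 to 3.84 and 3.71 to 3.93, with Cd3e, Cd3d and Cd3g never above it.

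**Figure D4:**
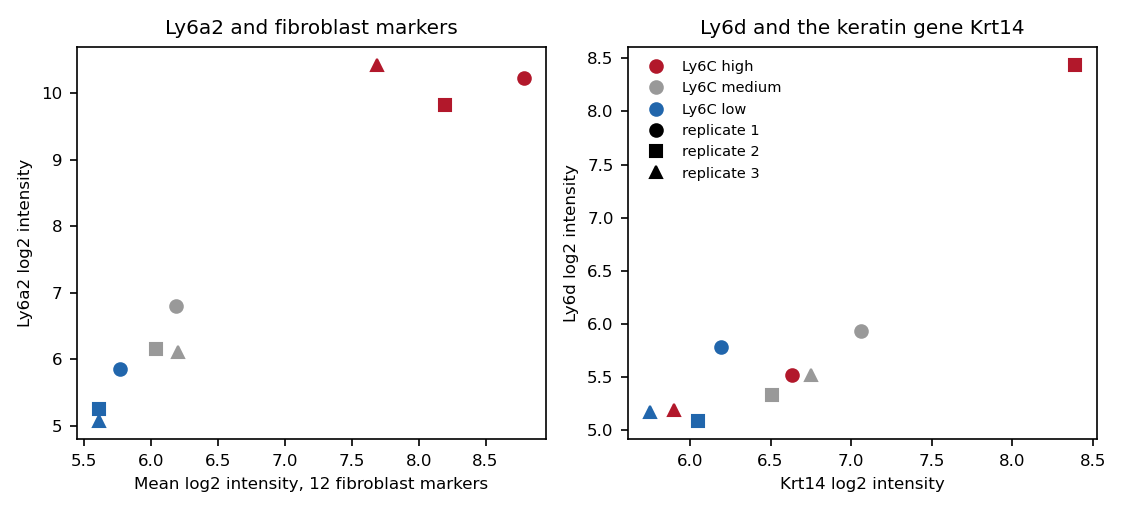
Left, Ly6a2 against the mean of 12 fibroblast markers on each array; right, Ly6d against the keratin gene Krt14, both axes in log2 intensity, coloured by gate. Among the high arrays Ly6a2 is highest where the fibroblast mean is 7.69 and lowest where it is 8.20. On the right, 1 high array stands apart for both Ly6d (8.44) and Krt14 (8.39).

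The genes most like Ly6c2 were Slfn1 (r = 0.993), Sema4d (0.990), Snx18 (0.986), Chil3 (0.985) and Itgb7 (0.984). Slfn1 is a Schlafen gene, Sema4d a semaphorin, Snx18 a sorting nexin, Chil3 a chitinase-like protein of monocytes and Itgb7 an integrin chain. With gate means removed, r was 0.81 to 0.96 for these 5 genes, which were picked by their r over the same arrays. Slfn1, for example, stood at 9.33, 9.48 and 9.41 in high, at 8.69, 8.76 and 9.10 in medium and at 6.41, 6.57 and 7.55 in low. Low replicate 3 was the highest low array for Slfn1, for Chil3 (9.16 against 7.03 and 7.53) and for Itgb7 (7.67 against 7.06 and 6.93).

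Ly6e encodes an interferon-inducible member that also affects the entry of viruses. It was bright on every array, at 12.60, 12.24 and 12.30 in high, 12.06, 12.03 and 12.04 in medium and 11.85, 11.89 and 11.96 in low. The gates did not overlap and were ordered high, medium, low, over a range of 0.75. The difference between low and high was -0.48 (95% interval -0.73 to -0.23, 1.4-fold, limma adjusted p = 0.0385). It stayed past the threshold without high replicate 2 (limma adjusted p = 0.0483) but not when any of the other 8 arrays was dropped (0.0579 to 0.124), nor with quantile normalization repeated (0.0831). Medium differed from high by -0.34 (-0.59 to -0.08, limma adjusted p = 0.5) and low from medium by -0.15 (-0.40 to 0.10, 0.637), so neighbouring gates did not differ past the threshold. Ly6e followed the fibroblast mean at r = 0.95 over 9 arrays and at 0.74 within gates, and the part of that in the result was not tested.

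Ly6i, a further member of the cluster close in position to Ly6e, varied widely within gates. It stood at 7.79, 6.44 and 6.96 in high, at 6.58, 6.14 and 6.72 in medium and at 5.01, 5.25 and 6.49 in low. Low replicate 3 overlapped with both other gates. The difference between low and high was -1.48 (95% interval -2.44 to -0.52), which missed the threshold (limma adjusted p = 0.0854, unadjusted p = 0.00669). It passed without low replicate 3 (-1.93, limma adjusted p = 0.0206), with array weights (0.0472), and with genes restricted to those above the array median on at least 3 arrays (0.0485). Medium differed from high by -0.58 (-1.54 to 0.37) and low from medium by -0.90 (-1.86 to 0.06). Its closest genes were Ccnk (r = 0.986), Kdm5b (0.966), Rfxap (0.966), Igfbp6 (0.955) and Lpcat2 (0.952), a cyclin, a histone demethylase, an MHC class II regulator, a binding protein of insulin-like growth factors and a lipid acyltransferase. With gate means removed, their r was 0.90 to 0.97, on the arrays by which they were picked.

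Ly6d, a surface protein of early B cells and of keratinocytes, rested on a single array. The high arrays read 5.52, 8.44 and 5.19, the medium arrays 5.93, 5.33 and 5.52, and the low arrays 5.78, 5.08 and 5.17. Only high replicate 2 stood apart, and the gates otherwise overlapped. The difference between low and high was -1.04 (95% interval -2.66 to 0.58, limma adjusted p = 0.548) and -0.01 without high replicate 2. On that array the keratin gene Krt14 read 8.39, against 6.63 and 5.90 on the other high arrays and 5.75 to 7.06 elsewhere, while the mean of 11 keratinocyte markers was 5.20 there, 5.23 and 4.63 on the other high arrays, 4.81 to 5.01 in medium and 4.91 to 5.04 in low. High replicate 2 was also the highest of the 9 arrays for Dsp (5.05), Trp63 (4.38) and Dsg3 (3.54), while Krt10 (7.38), Krt17 (5.59) and Perp (5.61) were highest on high replicate 1. Of the 11, Sfn (1.11, limma adjusted p = 0.00391) and Cdh1 (0.90, 0.00674) were higher in low than in high and 0 were lower. Over all genes 3.35% were higher and 2.32% lower. Dsg3 was never above the array median. The genes most like Ly6d were Coq4 (r = 0.940), B4galt5 (0.934), Krt14 (0.923), Vaultrc5 (0.913) and Tbc1d8 (0.899), and without that array their r was 0.50 to 0.73. The 10 B cell and plasmacytoid dendritic cell markers averaged 5.14 on that array, 5.19 and 4.82 on the other high arrays, 4.94 to 5.16 in medium and 4.83 to 4.96 in low, with Ms4a1 never above the array median. The part of other cells in this value was not tested.

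Ly6c1, the second gene for Ly6C and prominent in endothelial cells, was below the array median on all 9 arrays. Its values were 2.50, 3.73 and 2.69 in high, 2.83, 2.68 and 2.73 in medium and 2.71, 2.76 and 2.79 in low. The gates overlapped, and high replicate 2, the array with high Ly6d, was again the highest. The low minus high difference was -0.22 (95% interval -0.83 to 0.38) and turned to 0.15 without high replicate 2. The Ly6 genes are close copies of each other, and a probe set named for one may also bind RNA of another. Probe sequences were not used here, so the split between members is uncertain, as between Ly6c1 and Ly6c2 or between Ly6a2 and Ly6a. It is uncertain as well between Ly6a2 and Ly6c2, whose promoter windows were 97.0% identical.

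Ly6g encodes the neutrophil antigen that the sort removed. It read 2.88, 3.28 and 2.91 in high, 2.79, 2.74 and 3.64 in medium and 2.85, 4.61 and 3.28 in low, above the array median on 1 of 9 arrays. The gates overlapped, and the low minus high difference was 0.56 (95% interval -0.39 to 1.50, limma adjusted p = 0.591), or 0.04 without low replicate 2. Neutrophil markers were not at their highest on that array. Their mean over 14 genes was 5.13 on it, against 5.98 on low replicate 3, where S100a8 reached 10.37 and Ly6g 3.28. Array means of these markers spanned 4.85 to 5.33 (high gate), 5.28 to 5.68 (medium) and 4.90 to 5.98 (low), and Ltf, Camp and Ngp were never above the array median. Of the 14, Retnlg was higher in low against high (3.91, limma adjusted p = 0.00712) and Mmp8, Csf3r and Padi4 were lower. Over all genes 3.35% were higher and 2.32% lower. Without 1 array 2 to 4 of the 14 passed. The part of neutrophil RNA in the Ly6g values was not tested.

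Ly6k, best known from the testis, was flat. It lay between 4.15 and 4.32 on the 9 arrays, just above the array medians, and its second probe set lay between 3.06 and 3.50. The low minus high difference of 0.04 had a 95% interval of -0.16 to 0.24, and the medium minus high difference of -0.03 one of -0.23 to 0.17.

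The stretch from Ly6d to Ly6g, the outermost listed members, held 24 RefSeq genes. Of these, 13 were measured and 5 of those were not members. The list sets these ends, and genes of the cluster beyond them were not counted. These 5 were Ly6g6g, Gml, Cyp11b1, Cyp11b2 and Ly6m, the Cyp11b genes encoding steroid-producing enzymes of the adrenal gland. With limma 0 of the 5 passed in low versus high, against 5.67% of all genes in either direction, so 5 genes are too few to read this count. Their differences ran from -0.32 for Gml to 0.20 for Ly6g6g. Only Ly6g6g and Ly6m of the 5 were above the array median on any array. Ly6c2 and Ly6a2, with the largest falls among the 13, are adjacent in the cluster, and Ly6g, next to Ly6a2, and Ly6c1, on the other side of Ly6c2 with unmeasured genes between them, were below the array median on 8 and 9 of the 9 arrays.

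**Figure D5:**
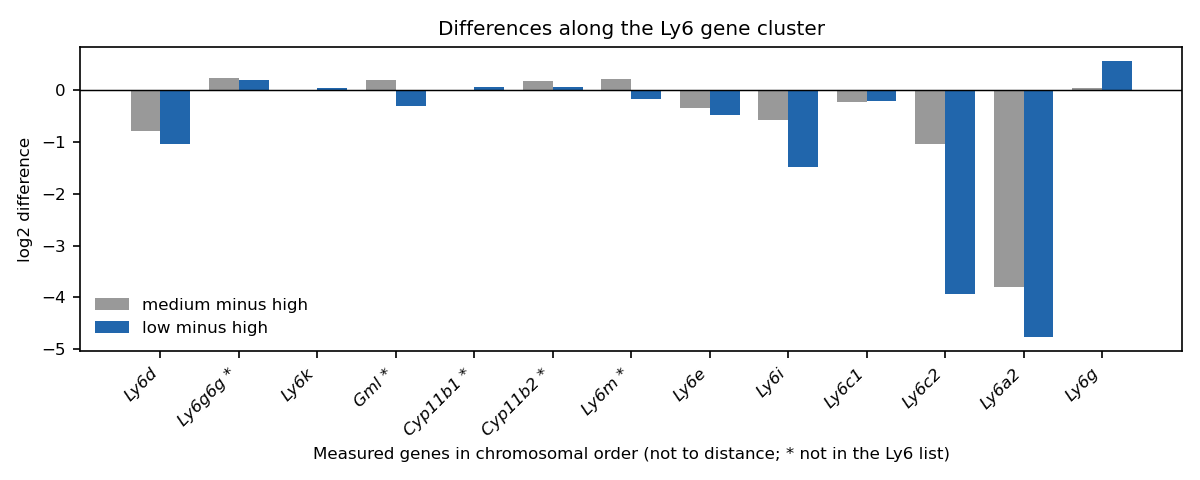
Log2 differences medium minus high (grey) and low minus high (blue) for the 13 measured genes from Ly6d to Ly6g, the outermost listed members. Genes are in chromosomal order, not to distance, and asterisks mark genes outside the Ly6 list. The longest bars belong to the neighbours Ly6c2 and Ly6a2, and the 5 other genes stay between -0.32 and 0.23.

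Other genes that share the Ly6 protein fold (LU domain) were read next. Of 29 measured, 1 was lower in low than in high and 0 higher with limma (2 lower and 1 higher at an unadjusted p under 0.05), and the median difference was -0.07. The share called was near that of all genes, 2.32% lower and 5.67% in either direction. The gene called was Cd177, a GPI-anchored surface glycoprotein. It stood at 8.91, 8.71 and 9.04 in high, at 7.01, 6.36 and 7.28 in medium and at 4.23, 3.88 and 5.37 in low, without overlap. Its log2 difference was -4.40 from high to low (limma adjusted p = 0.000435) and -2.39 from medium to low (0.0166), and medium had covered a share of 0.46 of the distance, between the shares of Ly6c2 and Ly6a2. In medium versus high 0 of the 29 passed with limma (1 higher and 1 lower at an unadjusted p under 0.05), against 0.239% of all genes. With the replicate number as a block or without low replicate 3, 1 of the 29 passed. The fall from medium to low lost its call without medium replicate 1 or 3, without low replicate 1 or 2, and with only the arrays of those gates.

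The enzymes that build and attach the GPI anchor were called about as often as all genes, 1 of 26 against 5.67% in either direction. Of the 26 measured, 21 had a difference above 0 between low and high, with a median of 0.21 against 0.01 over all genes. With limma 0 were higher (6 at an unadjusted p under 0.05) and 1 lower, Piga, the catalytic subunit of the first step. Piga averaged 5.51 ± 0.17 (SD, n = 3) over the high arrays, 5.54 ± 0.10 over the medium and 4.98 ± 0.13 over the low arrays (limma adjusted p = 0.0365). The call was kept without high replicate 2 or low replicate 1 and lost without each of the other 7 arrays. In the comparisons of medium with high and of low with medium 0 of 26 passed with limma (1 and 5 at an unadjusted p under 0.05). Over all genes 0.239% and 1.93% passed.

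Interferon response genes were read because Ly6e is interferon-inducible. Of 24 measured, 10 were lower in low than in high and 0 higher (15 and 0 at an unadjusted p under 0.05), against 2.32% of all genes lower, with a median difference of -0.80, and 23 of the 24 lay below 0. Leaving out each array gave 6 to 10, with 6 without high replicate 1, high replicate 3, medium replicate 2 or low replicate 1. The named members were Irf7 (-1.54, limma adjusted p = 0.00476), Zbp1 (-1.54, 0.00223), Oas3 (-1.29, 0.000374) and Mx2 (-1.20, 0.0475), a transcription factor, a sensor of nucleic acid, an antiviral enzyme and an antiviral GTPase. In low versus medium 4 were lower, Zbp1, Irf7, Oas3 and Mx1, against 0.541% of all genes. Leaving out medium replicate 3 gave 1, leaving out medium replicate 1 or 2 or low replicate 1 or 2 gave 2, and the replicate block or array weights gave 7. In medium versus high 0 passed with limma (3 lower at an unadjusted p under 0.05), against 0.239% of all genes. The mean of the list correlated over 9 arrays with Ly6c2 (r = 0.91) and Ly6i (0.84) more than with Ly6e (0.68) and Ly6a2 (0.64). Within gates the values were 0.57, 0.60, 0.08 and -0.35.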

How the data were processed

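RNA of sorted cells was amplified with the NuGEN Applause WT-Amp ST kit and hybridised to Affymetrix arrays, per the labels' protocols. The authors deposited log2 intensities per probe set, made with RMA per the submitters' processing notes; the RMA version and the genome build are not given in the sources used here. Of 41345 probe sets, 23521 had 1 gene symbol, 1814 several and 16010 none in the probe table. For each of 22180 genes the probe set with the highest mean over the 9 arrays was used, without a filter. The number of arrays, 3 per gate, limits the precision.

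The 3 gates were fitted together with limma 3.58.1 (R 4.3.3; 6 residual degrees of freedom), with Benjamini-Hochberg adjustment over all genes and a threshold of 0.05. The scripts were tested on simulated data. All members were named. From each other list up to 4 genes past the threshold with the largest difference were named, mainly for low against high. For likeness the 5 genes with the highest r were named, among genes with a mean of at least 6. Likeness was read for members with a range of at least 1 and a highest array of at least 6. Members that failed this got none. Genes beyond this rule (marker genes, neighbours of the cluster) were picked after their values were seen. The members and lists were chosen with earlier results of these data known. Promoter windows were aligned with Biopython 1.88. The alternatives were quantile normalization, centring, averaging of probe sets, a filter on dim genes, a trended and robust prior, fits of only 2 gates, a block for the replicate number, weighting of arrays, and leaving out each array.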

Additional observations from a re-analysis of the deposited data

How the results depend on the processing

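The calls of Ly6a2 and Ly6c2 between low and high, of Ly6a2 between medium and high and of Ly6c2 between low and medium were kept under 8 other settings and without each of the 9 arrays in turn. Between low and high 2 to 3 members passed when 1 array was left out. Between medium and high 1 to 2 passed, the second being Ly6c2 without low replicate 3. The call of Ly6e was lost with quantile normalization, with the replicate block and with only 2 gates. With the replicate number as a block, 2 members passed between low and high, 1 between medium and high and 1 between low and medium, and Ly6e had a limma adjusted p of 0.0568. The labels do not say whether the numbers pair the arrays, and the data did not settle it. Of 9 same-number pairs 4 correlated above 0.1, all 3 of replicate 3 among them, and 11 of 18 comparisons were best with their own number, a hint of pairing.

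Differences that changed sign were all short of the threshold. Ly6g, medium minus high, was -0.003 with quantile normalization, -0.01 with centring and -0.26 to 0.19 without 1 array. Ly6k with all its probe sets averaged was -0.007 (low minus high), 0.02 (medium minus high) and -0.03 (low minus medium), and medium minus high was -0.07 to 0.0074 without 1 array. Without 1 array Ly6c1 ran from -0.46 to 0.15 in low minus high, from -0.46 to 0.15 in medium minus high and from -0.03 to 0.05 in low minus medium, and Ly6d from -1.39 to 0.24 in medium minus high. Their cause was not tested.

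Over all genes, 1258, 53 and 427 passed in the 3 comparisons, against 644, 1 and 211 with only 2 gates, 1564, 61 and 629 with the block, and 596 to 1243, 2 to 72 and 119 to 522 without 1 array. In low versus medium 307 were higher and 120 lower, and 242 and 162 after quantile normalization. With 3 arrays per gate, members below the array median (Ly6c1, and Ly6g on 8 of 9 arrays) carry no reading of a small change.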
